A study of Mus musculus with 7 samples.

Results

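The transcripts of 44 enzymes of fatty acid activation, fatty acid oxidation and ketone body metabolism were followed in the livers of mice given MDL-800 and of control mice. The genes were chosen by name, from known enzymes of these pathways, and all 44 were found among the 54532 genes of the deposited table. They fall into 6 acyl-CoA synthetases, 19 mitochondrial oxidation genes, 2 ketone body enzymes, 11 peroxisomal genes and 6 acyl-CoA thioesterases. All 44 had a mean of at least 1 FPKM, the floor for testing, as did 11394 genes in all. FPKM scales fragments by gene length and library depth. The deposited length equals the merged exons of all annotated transcripts for 40 of the 44 genes, so levels of different genes compare only roughly. The most abundant gene below means the one with the highest mean FPKM.

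Liver RNA of old C57BL/6 mice was sequenced in 7 libraries. The 3 MDL-800 libraries came from mice on standard diet following supplementation with MDL-800, a small molecule that activates SIRT6, an NAD-dependent deacetylase. The 4 control libraries came from mice on standard diet. Dose, duration, fasting state, sex and exact age are not given in the labels, nor whether each library came from a separate animal. The p-values therefore measure the spread between these libraries.

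Fatty acids are first joined to coenzyme A by acyl-CoA synthetases. Long-chain acyl groups then enter mitochondria through the carnitine shuttle and are shortened by rounds of dehydrogenation, hydration, further dehydrogenation and thiolysis, with electrons passing through the electron transfer flavoprotein. The liver turns the acetyl-CoA formed in fasting into ketone bodies. Peroxisomes shorten very long and branched chains, and thioesterases release free fatty acid and coenzyme A from acyl-CoA. Many of these genes are known targets of the nuclear receptor PPARA.

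FPKM times length rose in equal steps within a library, which gave back whole reads. These numbered 17600066 to 19920469 per library, and each of the 44 genes rested on at least 58 reads in every library. Reads of Uty, Eif2s3y, Kdm5d and Ddx3y, all on the Y chromosome, were present in control 1 (2173 reads) and MDL-800 2 (3514 reads) and at 0 in the other 5 libraries. Xist, the RNA of the inactive X chromosome, was at 50 to 63.5 FPKM in 4 of those 5 libraries and at 0 in control 3. Control 1 and MDL-800 2 also stood apart over all genes tested: the first principal component of log2(FPKM + 1), with 49.6% of the variance, was at -49.7 and -49.9 in them and at 12.8 to 39.1 in the other 5. Results are therefore also given within the 5 libraries without Y-linked reads (MDL-800 1 and 3 against control 2, 3 and 4) and for the remaining pair. Hepatocyte markers, led by Alb, summed to 54317 to 82001 FPKM, while the muscle markers Ckm, Acta1 and Myh4 summed to at most 0.092 FPKM.

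Most of these genes lay higher in MDL-800 livers, by amounts that no single gene's test separated from the spread between libraries. The log2 fold change of log2(FPKM + 1) was above 0 for 40 of the 44 genes (90.9%, against 54.2% of all genes tested), with a median of 0.31 against 0.02 for all genes. Differences below are log2 fold changes on this scale, MDL-800 minus control. Carnitine palmitoyltransferase Cpt1a, the hydroxyacyl-CoA dehydrogenase Hadh, the ketone body enzyme Bdh1 and the peroxisomal bifunctional enzyme Ehhadh were higher in each MDL-800 library than in each control library. Those 4 genes are 9.09% of the 44, and 4.03% of all genes tested showed that pattern. None of the 44 showed the reverse pattern, against 2.42% of all genes. Acsm1, Etfb, Hacl1 and Eci2 were the 4 genes with log2 fold changes below 0 (-0.46, -0.31, -0.50 and -0.01).

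In limma 0 of 11394 genes (0%) passed an adjusted p under 0.05. The 44 genes had limma adjusted p-values from 0.95 to 0.998. At an unadjusted limma p under 0.05, 7 of them (15.9%) were higher and 0 lower, against 3.23% and 1.62% of all genes. These 7 were Acsm3, Acsl1, Cpt1a, Bdh1, Acat1, Ehhadh and Crat. That count was 13 higher and 1 lower within the 5 libraries without Y-linked reads (3.44% and 1.96% of all genes). It was 16 higher and 2 lower with summed reads as the denominator of FPKM, where all genes gave 630 higher (5.53%) and 146 lower (1.28%) in place of 368 and 185. It was 4 higher and 2 lower without control 2 (2.17% and 2.32% of all genes) and 4 and 1 without MDL-800 2 (1.92% and 1.64%). Without control 4 and without MDL-800 1 it was 4 and 0 (2.06% and 1.19%, and 2.6% and 1.01%). Without control 1 it was 16 and 1 (5.72% and 2.6%). Without control 3 and without MDL-800 3 it was 7 and 0 (4.19% and 1.7%, and 1.61% and 0.799%). The share of all genes thus did not always move with the count, and without control 2 more of all genes were lower than higher. Ehhadh stayed under 0.05 in all 19 settings, the fit as described and 18 alternatives, Cpt1a and Acsm3 in 17, Bdh1 in 16. These settings reuse the same 7 libraries, so they are not independent tests, and no share of all genes is given for them.

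**Figure D1:**
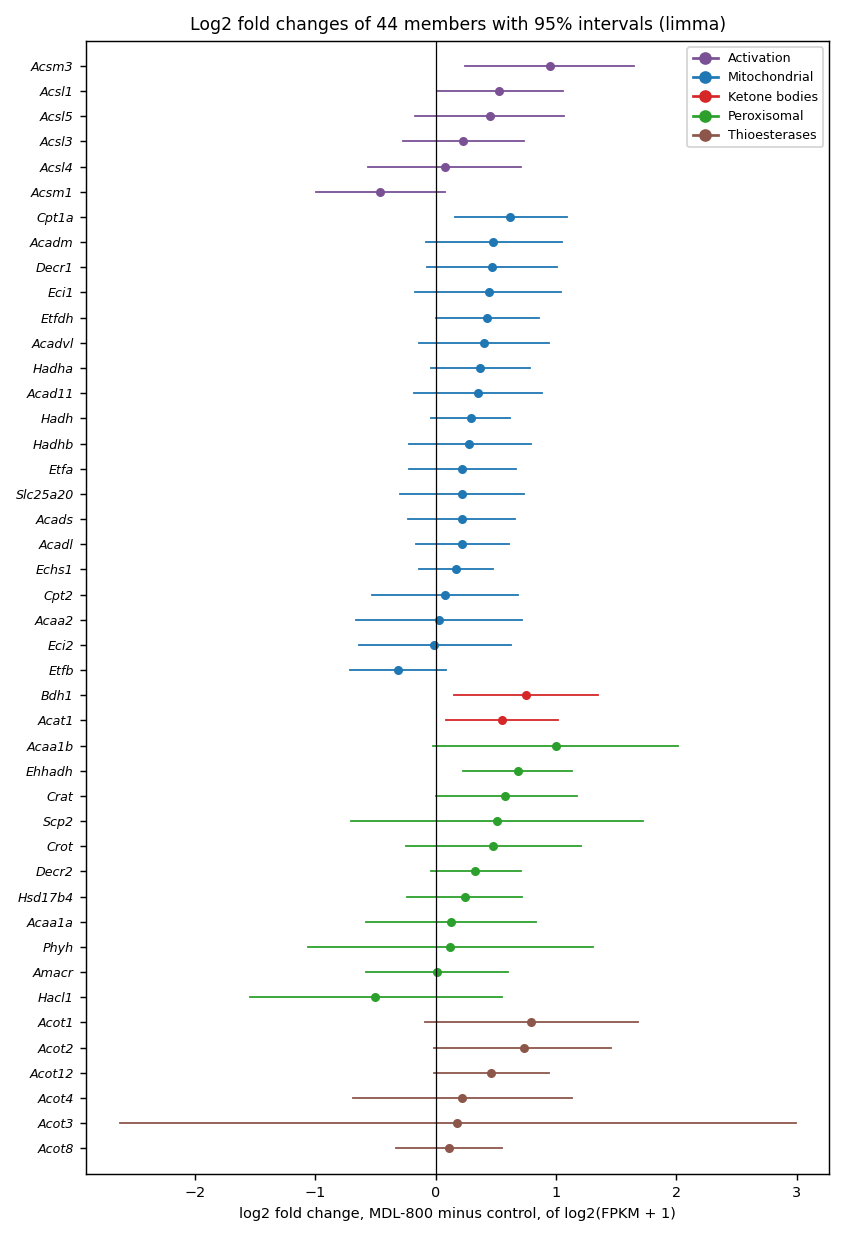
Log2 fold change (MDL-800 minus control, of log2(FPKM + 1)) of the 44 genes on the horizontal axis, with bars for limma's 95% intervals and colours for the 5 subgroups. The points of 40 genes lie right of 0, and the bars are widest for Acot3, which runs from -2.62 to 2.99.

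The libraries were uneven in these genes. Control 2 was the lowest library for 25 of the 44 genes, and control 1 was the highest control library for 29. MDL-800 2 was the highest of all libraries for 15 genes and MDL-800 1 for 12. All 3 MDL-800 libraries lay above control 2, control 3 and control 4 for 18 genes, and control 1 was the control that overlapped for 14 of those. No share of all genes is given for these counts, so they describe the 44 genes only and do not set them apart. The 44 genes together took 1.65, 1.81 and 1.47% of recovered reads in MDL-800 1 to 3, and 1.74, 1.11, 1.12 and 1.07% in control 1 to 4. Control 1 thus lay within the MDL-800 range and the other 3 controls below it.

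Within the 5 libraries without Y-linked reads the median of the 44 genes was 0.35, and 38 were above 0 (53.3% of all genes were). Both MDL-800 libraries lay above the 3 controls for 20 genes (45.5%, against 13.2% of all genes). They lay below the 3 controls for Acsm1 and Hacl1, against 9.5% of all genes. In the pair with Y-linked reads, MDL-800 2 was above control 1 for 32 of the 44 genes (52% of all genes), and 29 genes were above 0 in both settings. That pair is 1 library per group and has no replicate check.

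By subgroup the median log2 fold change was 0.34 for activation, 0.28 for the mitochondrial genes, 0.65 for the ketone body enzymes, 0.33 for the peroxisomal genes and 0.34 for the thioesterases. In the libraries without Y-linked reads the same medians were 0.14, 0.32, 0.82, 0.42 and 0.39. The mitochondrial median was 0.15 without control 2, and the peroxisomal median was 0.15 without MDL-800 2. The mean log2(FPKM + 1) of the ketone body pair was 7.28, 7.18 and 7.03 in MDL-800 1 to 3, against 7.04 in control 1 and 6.42, 6.46 and 6.13 in control 2 to 4.

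**Figure D2:**
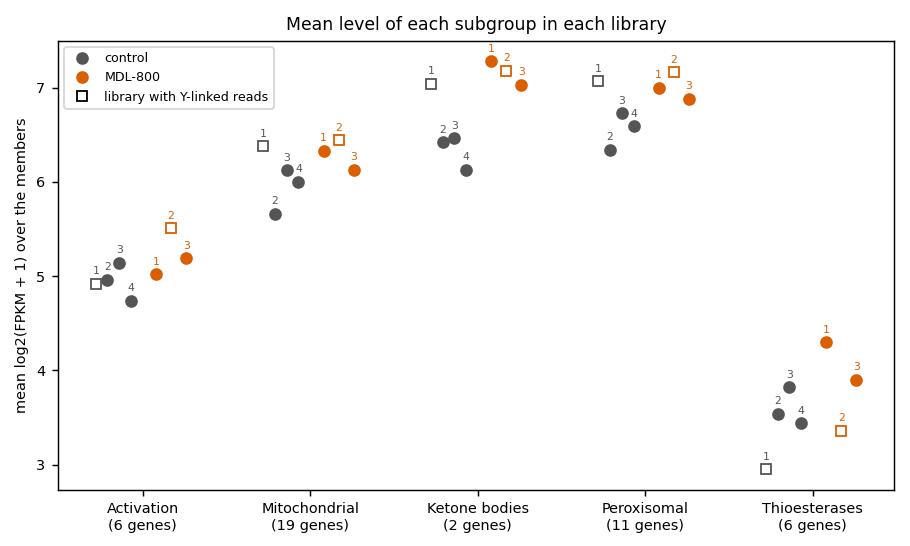
Mean of log2(FPKM + 1) over the genes of each subgroup (vertical axis) in each library, control in grey and MDL-800 in orange, with the replicate number beside each point and open squares for the libraries that held Y-linked reads. Control 1 lies with the MDL-800 libraries in the mitochondrial, ketone body and peroxisomal subgroups and is the lowest library for the thioesterases, at 2.95.

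Among the 6 synthetases Acsm3 had the highest log2 fold change and Acsm1 was below 0. Acsm3, a medium-chain acyl-CoA synthetase (chr7:119760923-119787513, GRCm38, as are the coordinates that follow), was at 14.3, 6.29, 8.37 and 6.75 FPKM in control 1 to 4 and at 13.9, 23.8 and 15.5 FPKM in MDL-800 1 to 3. MDL-800 2 was highest, and control 1 lay between MDL-800 1 and MDL-800 3, so the groups overlapped through 1 control. Means were 17.7 ± 5.30 (SD, n = 3) and 8.92 ± 3.68 FPKM (SD, n = 4), a difference of 0.95 on the log2 scale (standard error 0.30, limma unadjusted p = 0.0155, adjusted p = 0.95). Its neighbour Eri2, which shares 39.7% of the exon bases of Acsm3 from the opposite strand, was at 0.552 to 0.987 FPKM. The library chemistry does not mark strand, so reads of such overlapping genes cannot be told apart.

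Acsl1, the main long-chain synthetase of liver (chr8:46471037-46536051), was at 82.9, 55.3, 63.6 and 49.0 FPKM in the controls and 87.9, 111 and 73.7 FPKM in MDL-800. Only control 1 overlapped, lying above MDL-800 3. For Acsl1 the log2 fold change was 0.53 with a standard error of 0.22 (limma unadjusted p = 0.0466, adjusted p = 0.95). Acsm1, another medium-chain synthetase and the most abundant of the 6, was at 211, 159, 241 and 186 FPKM in the controls and 134, 192 and 114 FPKM in MDL-800. MDL-800 1 and MDL-800 3 were the lowest 2 libraries, and MDL-800 2 lay inside the control range. Its log2 fold change was -0.46 with a standard error of 0.23 (limma unadjusted p = 0.0846, adjusted p = 0.95), and -0.63 in the libraries without Y-linked reads. Acsl5, Acsl3 and Acsl4, further long-chain synthetases, had log2 fold changes of 0.45, 0.23 and 0.08, and Acsl3 and Acsl4 turned below 0 within the libraries without Y-linked reads.

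The 3 carnitine shuttle genes had log2 fold changes of 0.62, 0.22 and 0.08. Cpt1a, the outer membrane enzyme that sets the rate of long-chain entry (chr19:3323301-3385732), was at 85.5, 51.2, 59.0 and 56.8 FPKM in control 1 to 4. In MDL-800 1 to 3 it was at 88.9, 109 and 91.0 FPKM. The groups did not overlap, but control 1 was only slightly below MDL-800 1, while the other 3 controls were much lower. Means were 96.3 ± 11.1 (SD, n = 3) and 63.1 ± 15.3 FPKM (SD, n = 4). For Cpt1a the log2 fold change was 0.62 with a standard error of 0.20 and a 95% interval from 0.16 to 1.09 (limma unadjusted p = 0.0159, adjusted p = 0.95), and over all alternatives it ran from 0.53 to 0.78.

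Cpt2, the inner membrane transferase, was at 44.8 to 89.8 FPKM in the controls and 57.3 to 72.6 FPKM in MDL-800, so MDL-800 lay wholly inside the control range, with a log2 fold change of 0.08. Slc25a20, the carnitine-acylcarnitine carrier, was at 34.2, 18.5, 21.9 and 24.9 FPKM in the controls and 31.4, 30.5 and 23.8 FPKM in MDL-800, with a log2 fold change of 0.22. The median of these 3 genes was 0.22, and it was 0.09 and 0.38 on leaving out control 2 or control 1, and 0.14 and 0.34 on leaving out MDL-800 1 or MDL-800 3.

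The promoter stretch of Cpt1a is shown because it holds a nuclear receptor half-site, AGGTCA, here on the opposite strand. This half-site was in 11 of the 41 promoter windows of these genes (26.8%) and in 16.3% of all windows, as described below. A link between the half-site and the level of Cpt1a was not tested. The 76 bases chr19:3323172-3323247 (GRCm38.p6, RefSeq) are printed on the gene's strand, with the half-site in capitals. It starts 94 bases before the annotated start site.
Cpt1a: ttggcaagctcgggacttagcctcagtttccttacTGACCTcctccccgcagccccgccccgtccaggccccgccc

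All 5 acyl-CoA dehydrogenases, which take the first step of each oxidation round, had log2 fold changes above 0, from 0.22 to 0.48. Acadm, the medium-chain enzyme (chr3:153922357-153944632), was at 124, 69.7, 72.4 and 101 FPKM in the controls and 127, 146 and 106 FPKM in MDL-800. Control 1 alone reached the MDL-800 range. For Acadm the log2 fold change was 0.48 with a standard error of 0.24 (limma unadjusted p = 0.0841, adjusted p = 0.95). Acadvl, the very-long-chain enzyme, was at 102, 57.2, 90.3 and 66.4 FPKM in the controls and 99.7, 117 and 90.7 FPKM in MDL-800, with a log2 fold change of 0.40. Dvl2, on the opposite strand over 42.9% of the exon bases of Acadvl, was at 1.03 to 1.38 FPKM.

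Acad11, which acts on long-chain acyl-CoA, was at 35.5, 18.0, 30 and 25.3 FPKM in the controls and 33, 37.1 and 31.7 FPKM in MDL-800, with a log2 fold change of 0.35. Acadl, the long-chain enzyme and the most abundant of the 5, was at 109 to 154 FPKM in the controls and 146 to 179 FPKM in MDL-800, with a log2 fold change of 0.22. Acads, the short-chain enzyme, had a log2 fold change of 0.22. Control 2 was the lowest library for all 5 genes, and without it their median was 0.17 in place of 0.35.

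Among the later steps of the spiral, 7 of 8 genes had log2 fold changes above 0, with a median of 0.29, or 0.18 without control 2. Hadh, the short-chain and medium-chain hydroxyacyl-CoA dehydrogenase (chr3:131233419-131272101), was at 84.7, 66.3, 89.3 and 76.6 FPKM in the controls and 99.2, 99.3 and 90.9 FPKM in MDL-800. The groups did not overlap, with control 3 only just below MDL-800 3. Means were 96.5 ± 4.85 (SD, n = 3) and 79.2 ± 10.1 FPKM (SD, n = 4). For Hadh the log2 fold change was 0.29 with a standard error of 0.14 (limma unadjusted p = 0.0787, adjusted p = 0.95).

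Hadha and Hadhb encode the subunits of the mitochondrial trifunctional protein, which carries out the last 3 reactions on long chains. Hadha was at 40.9, 29.0, 44.8 and 32.6 FPKM in the controls and 49.2, 48.6 and 44 FPKM in MDL-800, a difference of 0.37 on the log2 scale (standard error 0.17). Control 3 overlapped MDL-800 3. Hadhb was at 18.2 to 30.8 FPKM in the controls and 26.1 to 33 FPKM in MDL-800, a log2 fold change of 0.28 (standard error 0.21). Of the 50-base windows of Hadhb transcripts, 18.1% also occur in the gene Gm13910 (19.5 to 42.3 FPKM), so part of its reads is uncertain.

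The interval between the divergent genes Hadha and Hadhb is shown because their start sites lie 86 bases apart and the genes are read in opposite directions. It is 85 bases long, chr5:30155163-30155247 (GRCm38.p6, RefSeq, plus strand), with 69.4% G or C and 9 CG pairs. No letters are marked.
Hadha and Hadhb interval: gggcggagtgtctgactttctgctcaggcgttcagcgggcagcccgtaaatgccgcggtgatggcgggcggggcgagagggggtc

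Decr1, a dienoyl-CoA reductase needed for polyunsaturated chains, was at 62.0, 36.5, 57.8 and 38.1 FPKM in the controls and 73.8, 67.6 and 56.8 FPKM in MDL-800, with a log2 fold change of 0.47. Eci1, an enoyl-CoA isomerase, had a log2 fold change of 0.44, and Echs1, the short-chain hydratase, had a log2 fold change of 0.17, with the narrowest spread of the 44 genes, from 30.5 to 43.6 FPKM over the 7 libraries. Acaa2, a thiolase of the last step and the most abundant mitochondrial member, was at 892, 424, 590.4 and 677 FPKM in the controls and 612, 843 and 500.4 FPKM in MDL-800. The MDL-800 libraries lay inside the control range, with a log2 fold change of 0.03. Acaa2 and the isomerase gene Eci2 (-0.01) changed sign under several alternatives.

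Electron transfer genes did not share a direction. Etfdh, the oxidoreductase that passes electrons to ubiquinone, was at 42.2, 26.8, 38.0 and 31.6 FPKM in the controls and 51.6, 47.6 and 40.5 FPKM in MDL-800. Control 1 lay above MDL-800 3 and the other controls below all MDL-800 libraries. For Etfdh the log2 fold change was 0.43 with a standard error of 0.18 (limma unadjusted p = 0.0508, adjusted p = 0.95). Etfa, the alpha subunit of the flavoprotein, was at 286, 181, 214 and 246 FPKM in the controls and 259.7, 302 and 241 FPKM in MDL-800, with a log2 fold change of 0.22. Etfb, the beta subunit, was at 65.4, 46.2, 62.6 and 66.7 FPKM in the controls and 49.6, 52.9 and 42.1 FPKM in MDL-800, with a log2 fold change of -0.31 and a standard error of 0.17. Control 2 was the control inside the MDL-800 range for Etfb, and the other 3 controls lay above it. Gm45233, which shares 53.0% of the exon bases of Etfb, was at 0 to 0.144 FPKM. The median of the 3 genes was 0.22, or 0.11 without control 2 and 0.13 without MDL-800 2.

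Both ketone body enzymes lay higher in MDL-800 livers. Bdh1, which interconverts acetoacetate and beta-hydroxybutyrate (chr16:31422280-31458901), was at 96.2, 56.4, 58.8 and 43.8 FPKM in the controls and 111, 99.1 and 101 FPKM in MDL-800. The groups did not overlap, but control 1 came close to MDL-800 2. Means were 104 ± 6.12 (SD, n = 3) and 63.8 ± 22.6 FPKM (SD, n = 4), a difference of 0.75 on the log2 scale (standard error 0.26, limma unadjusted p = 0.0215, adjusted p = 0.95). For Bdh1 the difference was 1 within the libraries without Y-linked reads but only 0.04 in the pair with them. Acat1, the mitochondrial acetoacetyl-CoA thiolase (chr9:53580522-53610382), was at 176, 127, 129 and 108 FPKM in the controls and 216, 209.9 and 166 FPKM in MDL-800. Control 1 lay above MDL-800 3. For Acat1 the log2 fold change was 0.55 with a standard error of 0.20 (limma unadjusted p = 0.0267, adjusted p = 0.95). Of Bdh1's exon bases 13.7% are shared with the antisense gene Gm15743, which was at 0 to 0.617 FPKM.

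Of the other ketone body genes, Oxct1, Bdh2, Aacs, Slc16a1 and Slc16a6 gave 2 of 5 log2 fold changes above 0 (54.2% of all genes were). Their median was -0.06. Slc16a6, a monocarboxylate transporter, had a log2 fold change of -0.74 (standard error 0.50) and a single high control (10.8 FPKM in control 3, at most 3.34 FPKM elsewhere). Oxct1, which activates acetoacetate in tissues that use ketone bodies, was at 0.764 to 8.35 FPKM in the controls and 1.17 to 3.16 FPKM in MDL-800, and Bdh2 had a log2 fold change of 0.21 (standard error 0.33).

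**Figure D3:**
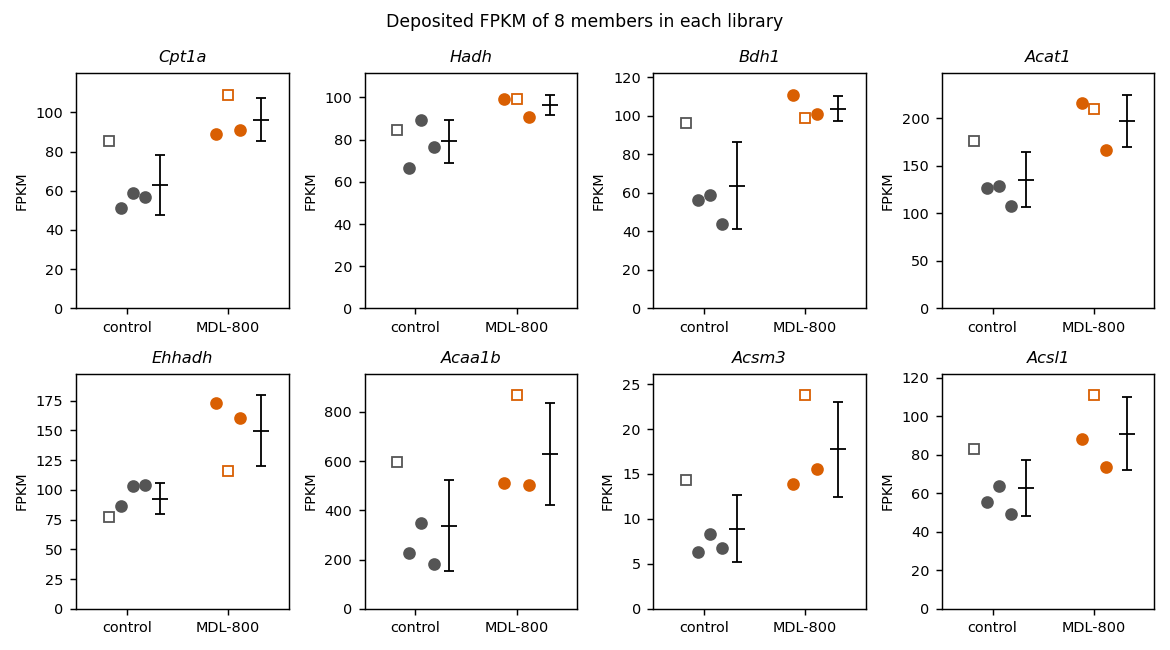
FPKM (vertical axis, from 0) of 8 genes in each library, with controls in grey and MDL-800 in orange, open squares for the libraries with Y-linked reads, and bars for the mean ± SD of each group. Cpt1a, Hadh, Bdh1 and Ehhadh separate the groups, and for Acat1, Acsm3 and Acsl1 control 1 is the control that overlaps.

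Peroxisomal genes gave 10 of 11 log2 fold changes above 0. Ehhadh, which hydrates and dehydrogenates enoyl-CoA in peroxisomes (chr16:21761287-21787807), was at 77.4, 86.1, 103 and 104 FPKM in control 1 to 4 and at 173, 116 and 160.5 FPKM in MDL-800 1 to 3. The groups did not overlap, and control 1 was here the lowest library, unlike for Cpt1a and Bdh1. Means were 149.9 ± 29.9 (SD, n = 3) and 92.5 ± 12.9 FPKM (SD, n = 4). For Ehhadh the log2 fold change was 0.68 with a standard error of 0.19 and a 95% interval from 0.23 to 1.13 (limma unadjusted p = 0.00885, adjusted p = 0.95). It was 0.77 within the libraries without Y-linked reads and 0.58 in the pair with them, and ran from 0.57 to 0.85 over all alternatives.

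Acaa1b, a peroxisomal thiolase (chr9:119148023-119157093), was at 595, 227, 347 and 182 FPKM in the controls and 513, 869 and 503 FPKM in MDL-800. Only control 1 overlapped, lying above MDL-800 1 and MDL-800 3. For Acaa1b the log2 fold change was 1 with a standard error of 0.43 (limma unadjusted p = 0.0529, adjusted p = 0.95). Its paralog Acaa1a, 182583 bases away on the same chromosome, had a log2 fold change of 0.13, and 30.5% of the 50-base windows of Acaa1b transcripts also occur in Acaa1a, so their reads are uncertain. Acaa1a turned below 0 without control 2 or without MDL-800 2.

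Crat, the carnitine acetyltransferase of mitochondria and peroxisomes, was at 8.04, 8.45, 13.6 and 9.16 FPKM in the controls and 19.1, 10.5 and 16.5 FPKM in MDL-800. Control 3 overlapped MDL-800 2, and the log2 fold change was 0.58 with a standard error of 0.25 (limma unadjusted p = 0.0492, adjusted p = 0.95). Crot, the octanoyltransferase, was at 236, 116, 147 and 97.8 FPKM in the controls and 236, 169 and 192 FPKM in MDL-800, with a log2 fold change of 0.48, or 0.84 in the libraries without Y-linked reads. In the pair with Y-linked reads Crot lay lower in MDL-800, at -0.48. Decr2, the peroxisomal dienoyl-CoA reductase, had a log2 fold change of 0.33, and Hsd17b4, the D-bifunctional enzyme, one of 0.24.

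Branched-chain enzymes showed no shared direction. Scp2, whose long form is a thiolase for branched chains and whose short form is a sterol carrier, was the most abundant of the 44 genes. It was at 1649, 469, 464 and 623 FPKM in the controls and 753, 1627 and 773 FPKM in MDL-800, with a log2 fold change of 0.51 and a standard error of 0.51. Leaving out MDL-800 2 gave 0.15 for Scp2, and leaving out control 1 gave 0.93. Control 1 and MDL-800 2 were far above the other 5 libraries, of which the MDL-800 libraries were the higher. Of its 50-base windows 29.7% also occur in Scp2-ps2 (47.5 to 108 FPKM). Phyh, which hydroxylates phytanoyl-CoA, and Amacr, the racemase, had log2 fold changes of 0.12 and 0.01 and changed sign under some alternatives. Hacl1, the lyase of alpha-oxidation, was at 7.74, 17.9, 32.6 and 21.4 FPKM in the controls and 15.3, 8.76 and 13.8 FPKM in MDL-800, a log2 fold change of -0.50 (standard error 0.44). Gm49387, which shares 31.1% of its exon bases, was listed at 0 in all 7 libraries. For Hacl1 the libraries with Y-linked reads were the lowest of each group.

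All 6 thioesterases had log2 fold changes above 0, but their libraries followed different orders, and without control 1 only 4 of 6 were above 0. Acot3, at 0.18 with a standard error of 1.19, and Acot4, at 0.22 with one of 0.39, were the 2 below 0 there (-0.74 and -0.09). Acot3 was also below 0 without MDL-800 1 or without MDL-800 3. Acot1 to Acot4 lie together on chromosome 12 and are close paralogs: 24.5% of the 50-base windows of Acot2 transcripts also occur in Acot1. Acot2, the mitochondrial member (chr12:83987861-83993873), was at 2.29, 4.31, 3.83 and 3.71 FPKM in the controls and 8.46, 3.40 and 8.72 FPKM in MDL-800. MDL-800 1 and MDL-800 3 were higher than all controls, and MDL-800 2 lay inside the control range. For Acot2 the log2 fold change was 0.73 with a standard error of 0.31 (limma unadjusted p = 0.0518, adjusted p = 0.95).

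Acot12, which cleaves acetyl-CoA in the cytosol, was at 41.3, 23.3, 28.2 and 28.8 FPKM in the controls and 39.7, 47.3 and 37.7 FPKM in MDL-800. Control 1 lay inside the MDL-800 range, and the log2 fold change was 0.46 with a standard error of 0.20 (limma unadjusted p = 0.0556, adjusted p = 0.95). Acot1, the cytosolic long-chain enzyme, was at 6.98, 4.75, 5.84 and 4.05 FPKM in the controls and 18.8, 9.57 and 5.25 FPKM in MDL-800. Its spread within MDL-800 was wide, with MDL-800 3 inside the control range, and the log2 fold change was 0.79 with a standard error of 0.37. For Acot1 it was 0.37 without MDL-800 1 and 1.2 without MDL-800 3. Acot8, a peroxisomal enzyme, had a log2 fold change of 0.11. The median of the 6 was 0.34, and 0.66 without MDL-800 2 or 0.57 without control 3. It was 0.54 with array weights and 0.22 with a floor of 5 FPKM, which leaves Acot2 out.

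Some of these genes separated the libraries with Y-linked reads from the rest, across both groups. In a limma fit with a term for Y-linked reads beside the term for group, 6 of the 44 genes (13.6%) passed an adjusted p under 0.05, against 2.42% of all genes tested. Where Y-linked reads were present, Acsm3, Scp2 and Phyh were higher (1.33% of all genes were) and Acot2, Acot3 and Acot4 lower (1.1% of all genes were). This term compares 2 libraries with 5.

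Acot3, a peroxisomal long-chain thioesterase (chr12:84052144-84060402), was at 1.16 FPKM in control 1 and 3.20 FPKM in MDL-800 2. In the other 5 libraries it was at 16.2 to 42.9 FPKM, with no overlap. The log2 difference was -3.35 with a standard error of 0.37 (limma adjusted p = 0.0114), and the adjusted p ran up to 0.224 over 9 alternatives, 6 of which kept the call. Acot4, which acts on dicarboxylyl-CoA in peroxisomes, was at 6.52 and 10.5 FPKM against 14.6 to 20.0 FPKM, a difference of -1.05 (limma adjusted p = 0.0322, up to 0.423). For Acot2 the difference was -0.84 (limma adjusted p = 0.0428, up to 0.258).

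Scp2 was at 1627 to 1649 FPKM in the libraries with Y-linked reads and 464 to 773 FPKM in the others, a log2 difference of 1.40 with a standard error of 0.20 (limma adjusted p = 0.0293, up to 0.393). Phyh was at 1194 to 1223 FPKM against 345 to 629.8 FPKM, a difference of 1.33 (limma adjusted p = 0.0498, up to 0.49). Scp2 and Phyh showed clear gaps between the 2 libraries and the other 5. Acsm3 overlapped, at 14.3 to 23.8 FPKM against 6.29 to 15.5 FPKM, with a difference of 0.80 (limma adjusted p = 0.0461, up to 0.512). Of the 9 alternatives 4 kept the call for Scp2 and Acot4, 3 for Phyh and 1 each for Acot2 and Acsm3. Without control 1, which leaves 1 library with Y-linked reads, none of the 6 passed, and the same held without MDL-800 2 and without MDL-800 1.

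Counted without a test, both libraries with Y-linked reads lay above the other 5 for 15 of the 44 genes (34.1%, against 20% of all genes). They lay below for Acot2, Acot3, Acot4 and Hacl1, against 12.8% of all genes. With the term in the fit, the log2 fold change of MDL-800 against control was 0.59 for Cpt1a, 0.71 for Ehhadh and 0.72 for Bdh1, and 0 genes passed.

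**Figure D4:**
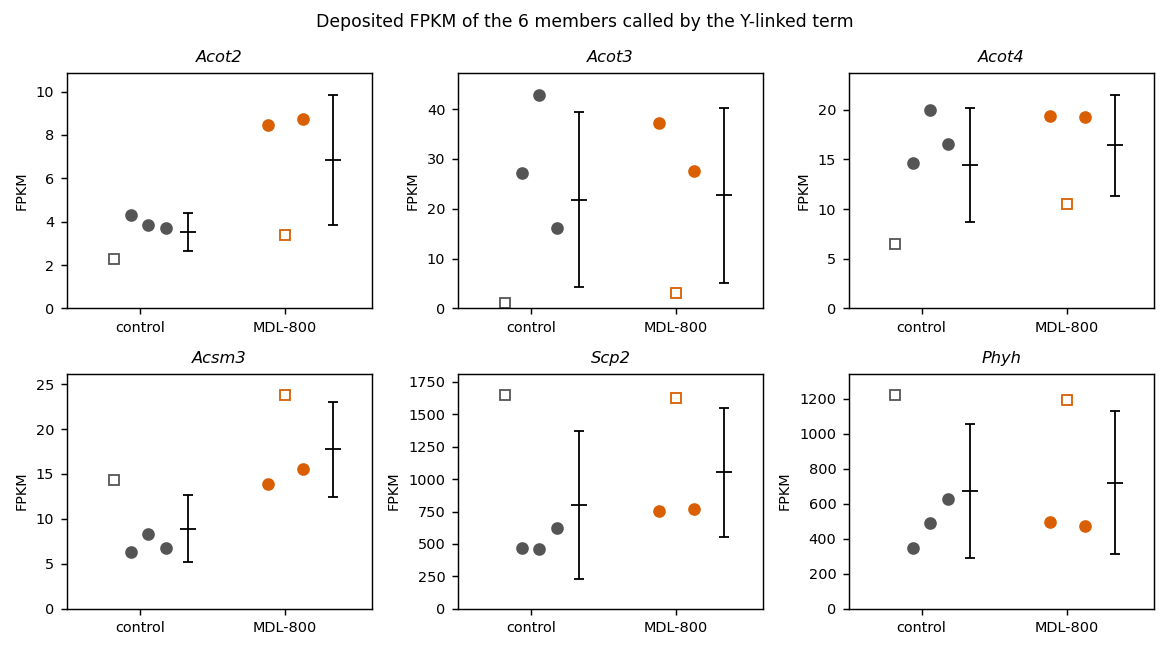
FPKM (vertical axis, from 0) of the 6 genes that passed the Y-linked term, in each library, with controls in grey, MDL-800 in orange, open squares for control 1 and MDL-800 2, and bars for the mean ± SD of each group. The open squares lie below the circles for Acot2, Acot3 and Acot4 and above them for Scp2 and Phyh, and overlap them for Acsm3.

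Promoters were searched for the element that PPARA binds with RXR, a direct repeat of AGGNCA with 1 spacer base between its copies, on both strands. The RefSeq windows reach from 250 bases before to 50 bases after each start site, and 38 of the 44 genes matched by symbol, with 41 windows. The exact repeat was in 0 of the 41 windows and in 0.381% of all 32851 windows. With 1 of its 10 fixed letters allowed to differ it was in 6 windows (14.6%, against 4.71% of all), and the half-site AGGTCA, which the repeat can contain, was in 11 (26.8%, against 16.3%). A match is a run of letters, not a measured binding site, and elements outside these windows were not searched.

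The 6 near matches are shown because they are the closest to the repeat among these genes. Each line is on the gene's strand (GRCm38.p6, RefSeq), with the 13 letters of the near match in capitals, read on the opposite strand except in Echs1. The stretches are chr3:131272145-131272217 for Hadh, chr7:43443900-43443972 for Etfb, chr7:140116617-140116671 for Echs1, chr9:55512278-55512350 for Etfa, chr12:84038336-84038378 for Acot4 and chr13:91741381-91741453 for Acot12.
Hadh: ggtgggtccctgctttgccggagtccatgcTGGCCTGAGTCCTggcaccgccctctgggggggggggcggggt
Etfb: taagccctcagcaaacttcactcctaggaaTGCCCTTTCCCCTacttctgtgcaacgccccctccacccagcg
Echs1: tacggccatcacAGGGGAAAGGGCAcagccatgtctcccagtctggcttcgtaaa
Etfa: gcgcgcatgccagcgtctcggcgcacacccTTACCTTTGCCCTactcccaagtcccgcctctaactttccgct
Acot4: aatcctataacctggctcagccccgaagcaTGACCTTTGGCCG
Acot12: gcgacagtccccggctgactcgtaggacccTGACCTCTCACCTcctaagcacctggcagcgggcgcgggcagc

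These 6 genes did not share a direction. Their log2 fold changes, MDL-800 minus control, were 0.29 for Hadh, -0.31 for Etfb, 0.17 for Echs1, 0.22 for Etfa, 0.22 for Acot4 and 0.46 for Acot12. The near match ends at the base just before the start site in Acot4 and starts 238 bases before it in Echs1.

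Other fatty acid oxidation genes also lay mostly above 0. Of 39 tested genes for related enzymes, transporters and binding proteins, 31 had log2 fold changes above 0, as did 54.2% of all genes. The median of the 39 was 0.21, against 0.02 for all genes. At an unadjusted limma p under 0.05, 3 were higher and 0 lower (3.23% and 1.62% of all genes). These 3 were Acad10, an acyl-CoA dehydrogenase family member, and the thioesterases Acot7 and Acot13, with log2 fold changes of 0.54, 0.33 and 0.41. All 3 lay higher in each MDL-800 library than in each control, as did 4.03% of all genes. Acad10 was at 4.85, 4.52, 7.24 and 4.86 FPKM in the controls and 8.01, 8.29 and 8.16 FPKM in MDL-800. No gene of these lists passed the limma adjusted p.

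Peroxisome assembly and transport genes gave 20 of 23 log2 fold changes above 0 (54.2% of all genes were), with a median of 0.14. At an unadjusted limma p under 0.05, 3 were higher and 0 lower (3.23% and 1.62% of all genes). Pex11a, which promotes peroxisome division, was at 32.3, 12.6, 19.1 and 14.2 FPKM in the controls and 32.7, 35.6 and 36.1 FPKM in MDL-800. The groups did not overlap, with control 1 just below MDL-800 1, and the log2 fold change was 0.89 with a standard error of 0.30. Pex19, a membrane protein import receptor, and Pex7, an import receptor for matrix enzymes, had log2 fold changes of 0.36 and 0.37. Both were also higher without overlap, as were 4.03% of all genes. Pex10, a ubiquitin ligase of the import machinery, was lower in each MDL-800 library than in each control, as were 2.42% of all genes. Its log2 fold change was -0.22 (limma unadjusted p = 0.0663).

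Regulators were mixed, with 10 of 15 tested genes above 0 (54.2% of all genes were) and a median of 0.13. Ppara, the nuclear receptor itself, was at 19.6, 9.65, 16.0 and 7.27 FPKM in the controls and 18.7, 39.5 and 26.7 FPKM in MDL-800, a log2 fold change of 1.08 (standard error 0.38, limma unadjusted p = 0.0238, adjusted p = 0.95). Control 1 lay above MDL-800 1. Fgf21, a hormone that the liver makes in fasting, had a log2 fold change of 1.11 (limma unadjusted p = 0.0437, adjusted p = 0.95) on levels of 0.965 to 9.35 FPKM, and 1.72 within the libraries without Y-linked reads. In the pair with them Fgf21 was lower in MDL-800 2, at 3.45 FPKM, than in control 1, at 5 FPKM, and control 1 lay above 2 of the 3 MDL-800 libraries. Foxa2, a forkhead transcription factor of hepatocytes, was at 14.3, 12.7, 19.6 and 22.1 FPKM in the controls and 13.5, 12.9 and 14.4 FPKM in MDL-800, with a log2 fold change of -0.28 and a standard error of 0.20. The Foxa2 levels of the MDL-800 libraries lay near those of control 1 and control 2. Sirt6, whose protein is the target of MDL-800, was at 1.57 to 1.83 FPKM in the controls and 1.46 to 2 FPKM in MDL-800.

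Markers of other cells differed between libraries. Summed Kupffer cell and macrophage markers were at 764 FPKM in control 2, the library lowest for most of the 44 genes, and at 112 FPKM in control 1 and 120 FPKM in MDL-800 2, the other 4 libraries lying at 210.4 to 413 FPKM. Clec4f, Vsig4, Cd5l and Adgre1 were each highest in control 2. Marco was instead highest in MDL-800 2, at 31.5 FPKM, and Timd4 in control 4, at 9.18 FPKM. Neutrophil and erythroid markers were also highest in control 2, at 288 and 784 FPKM, the latter mostly from haemoglobin genes. The erythroid marker Alas2 was instead highest in control 1 and MDL-800 2, at 47.2 and 50.1 FPKM against 3.44 to 11 FPKM elsewhere. Sinusoidal endothelial markers lay above 0 for 5 of 5 genes (54.2% of all genes did), with a median log2 fold change of 0.34. Stellate cell markers did so for 4 of 5, with a median of 0.21. Summed endothelial and stellate levels were 7.07 to 26.7 and 17.6 to 48 FPKM in the controls, lowest in control 4. In MDL-800 they were 22.7 to 29.8 and 37.4 to 58.1 FPKM. Of the endothelial markers Clec4g was higher in each MDL-800 library than in each control, as were 4.03% of all genes. The haemoglobin gene Hba-a1 was lower in each MDL-800 library (73 to 77.5 FPKM) than in each control (89 to 544 FPKM), as were 2.42% of all genes. Tested cholangiocyte markers were above 0 for 2 of 3, lymphocyte markers for 1 of 4 and Kupffer cell markers for 1 of 6. Neutrophil markers were so for 0 of 3 and erythroid markers for 1 of 4. Hepatocyte markers were above 0 for 2 of 6, with a median of -0.16, and their sum was highest in control 4, at 82001 FPKM. No marker gene passed an unadjusted limma p under 0.05. In whole liver, fewer hepatocytes and less RNA of a gene per hepatocyte cannot be told apart, and the part of other cells in these results was not tested. Without control 2 the median of the 44 genes was 0.26. The adipocyte markers Adipoq, Lep, Retn and Plin1 summed to 2.39 FPKM in control 4 and at most 0.0511 FPKM elsewhere.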

How the data were processed

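RNA of 7 mouse liver libraries was measured. Per the labels' protocols, lysed liver gave cDNA (SMARTer low-input kit), which was amplified, sheared and made into NEBNext libraries. This chemistry does not mark strand, so overlapping and antisense genes share reads. The authors deposited FPKM values per gene with coordinates and lengths. The submitters' processing notes name TopHat2 2.0.14, Bowtie2 2.1.0 and Cufflinks 2.2.1 with build mm9, and how reads were counted is not stated there. The deposited coordinates are those of GRCm38, since chromosome and start equal those of GENCODE M21 for 53756 of 54409 common identifiers.

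FPKM times length was a whole multiple of 1 step in each library (100% of nonzero values within 0.01), which gave the recovered reads. Their sum was 0.995 to 1.28 times the denominator behind the deposited FPKM. Values were tested as log2(FPKM + 1), which understates the change of low genes, with limma 3.58.1 in R 4.3.3 (lmFit, eBayes with trend, two-sided) on the 11394 genes whose mean reached 1 FPKM and Benjamini-Hochberg adjustment at 0.05. The procedure was also run on simulated reads that lacked the split between libraries seen here, so that run does not show how it behaves on these data.

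The genes, subgroups and lists were chosen with earlier results of these data known. The genes described in full are the 3 with the smallest p in each subgroup and the one with the highest mean, and 3 of each other list. Others are named where a result turned on them. Some genes of the other lists are not reported here and were left out of their counts. Alternatives were a pseudocount of 0.1, no filter, a floor of 5 FPKM, median scaling, quantile normalization, summed reads as denominator, voom on recovered reads, array weights, a Y-linked term, the libraries without Y-linked reads, a replicate block and leaving out each library. The half-site and the repeat with 1 changed letter were searched after the exact repeat gave no match, and the alternatives to the Y-linked term were chosen after seeing the data. Identity between paralog proteins was not analysed here.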

Additional observations from a re-analysis of the deposited data

How the results depend on the processing

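Under 18 alternatives, 1 of which left Acot2 out, 34 of the 44 genes kept 1 sign, and 0 of 791 gene and alternative pairs passed an adjusted p under 0.05 (lowest 0.327, limma). Over all genes 1 gene passed without control 1 and 1 without MDL-800 1, and 0 under the others, so leaving out a library gave 0 to 1. The median of the 44 genes ran from 0.26 to 0.41 and the number above 0 from 35 to 41. Among the 44 genes the count at an unadjusted limma p under 0.05 was 15 higher and 2 lower with quantile normalization (3.92% and 1.97% of all genes), 16 and 2 with voom (5.61% and 1.02%), 14 and 2 with array weights (4.63% and 3.68%) and 12 and 1 with the Y-linked term (4.70% and 2.57%), against 7 and 0 (3.23% and 1.62%). Unadjusted limma counts over all genes were 946 with array weights, 948 without control 1 and 274 without MDL-800 3, against 553 of 11394. They were 1083 of 26975 without a filter and 305 of 5900 at a mean of at least 5 FPKM, or 4.01% and 5.17% against 4.85%. Other scalings left the median of all genes within 0.065 of 0. The count of genes passing the Y-linked term was 276, but 38 without control 1 and 82, 84 and 93 on leaving out MDL-800 1, 2 or 3. The cause of these changes was not tested.

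Signs turned for 10 genes. Within the libraries without Y-linked reads Acsl3 was at -0.0061, Acsl4 at -0.18, Eci2 at 0.031 and Acaa2 at -0.00089. With array weights Acaa2, Acaa1a, Amacr and Phyh were at -0.12, -0.024, -0.079 and -0.15, and with the Y-linked term Acaa2 and Amacr at -0.025 and -0.034. Eci2 was at 0.034 with summed reads and 0.035 with voom, and Amacr at -0.019 with quantile normalization and -0.0049 with median scaling. Leaving out 1 library gave values on both sides of 0 for Acsl4 (-0.14 to 0.21), Cpt2 (-0.07 to 0.26), Eci2 (-0.21 to 0.16), Acaa2 (-0.17 to 0.2), Acaa1a (-0.13 to 0.33), Amacr (-0.15 to 0.19), Phyh (-0.31 to 0.46), Acot3 (-0.74 to 1.2) and Acot4 (-0.093 to 0.5).

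Same-numbered libraries did not deviate together (correlations of -0.59, -0.55 and 0.06), and the labels do not state that the numbers pair samples. The correlation was 0.77 between control 1 and MDL-800 2, the libraries with Y-linked reads. That split could hide a weaker link by number, so these values cannot decide whether samples were paired. With the replicate number as a block, on replicates 1 to 3, the median of the 44 genes was 0.30 and 0 genes passed, with 190 at an unadjusted limma p under 0.05. Of the 44 genes 1, Ehhadh, was under that p. The block fit leaves out control 4, and without control 4 and without a block 4 of the 44 and 371 of all genes were. Cpt2 was at -0.025 and Eci2 at 0.043 in both fits.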

Other observations

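The 44 genes spanned a wide range of FPKM in these livers, which depends also on the gene lengths used. Scp2, Phyh, Acaa2 and Acaa1b had the highest mean FPKM over the 7 libraries (908, 694, 648 and 462), and Acot2 and Acot1 the lowest (4.96 and 7.89). The spread between libraries was also uneven. The SD of log2(FPKM + 1) over the 7 libraries was 0.16 for Echs1 and 0.21 for Acadl and Hadh, all mitochondrial enzymes. It was 1.69 for Acot3, whose highest library was 37.0 times its lowest, 0.79 for Acaa1b, 0.76 for Scp2 and 0.70 for Phyh. These are peroxisomal enzymes, but the peroxisomal genes Decr2 and Hsd17b4 were at 0.25 and 0.28.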
